A study of Mus musculus with 10 samples.

Results

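Ether lipids are glycerophospholipids in which a fatty alcohol, rather than a fatty acid, is joined to the glycerol backbone. Plasmalogens are the ether lipids whose bond is a vinyl ether. The first steps of their synthesis run in peroxisomes, on dihydroxyacetone phosphate, and the route then passes to the endoplasmic reticulum. In mouse adipocytes this route has been tied to adipogenesis and to the peroxisomal side of lipid metabolism.

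Transcripts of 10 genes of ether lipid and plasmalogen metabolism were followed in inguinal white adipose tissue (iWAT), a subcutaneous depot. The genes were Dhrs7b, Gnpat, Agps, Far1, Far2, Selenoi, Tmem189, Tmem86a, Agmo and Chpt1, taken from the deposited table by gene symbol. All 10 were found, each under 1 identifier, among 40501 gene identifiers in all, and all 10 were among the 14913 genes with enough counts to be tested. The bulk RNA-seq libraries came from 5 PexRAP-AKO mice, which were Cre-positive with PexRAP (the product of Dhrs7b, also named ADHAPR) deleted in adipose tissue, and from 5 Cre-negative Control mice. All mice were male, of C57/BL6J background and fed chow. The labels speak both of 8 weeks on chow and of mice 8 weeks old, which leaves the harvest age uncertain. For the Cre driver and the exons removed, the sources used here give nothing. PexRAP-AKO replicates were numbered 1, 2, 3, 5 and 6, and Control replicates 2, 3, 5, 7 and 8. Each number within a group was taken as a separate mouse.

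The libraries held 11274865 to 19881168 counts. Markers of white adipocytes were abundant in all 10, with Adipoq at 1864 to 2880 CPM (counts scaled to library size by the TMM method) in PexRAP-AKO and 2179 to 2914 CPM in Control. An unadjusted p under 0.05 in edgeR's fit was reached by 15.5% of all genes tested, 9.01% on the higher side and 6.44% on the lower. Of 10 white adipocyte markers 8 were negative (median log2 fold change -0.10, 1 with an unadjusted p under 0.05). That marker was Cfd, at -0.47, whose groups did not overlap, as for 1.33% of all genes on the lower side. Several other cell types had markers that leaned to a single side, with 0 of them past edgeR's threshold. Macrophage (median 0.17) and adipose progenitor markers (median -0.0018) had 0 with an unadjusted p under 0.05. Of 12 brown adipocyte markers 11 were positive (median log2 fold change 0.88, 3 with an unadjusted p under 0.05 on the higher side and 1 on the lower). All 11 skeletal muscle markers tested were negative (median -2.59, 6 with an unadjusted p under 0.05), as were all 10 endothelial markers (median -0.26, 4 with an unadjusted p under 0.05). All 9 T cell markers were positive (median 1.47, 4 with an unadjusted p under 0.05), as were all 7 B cell markers (median 0.98, 0 with an unadjusted p under 0.05). The mean log2 CPM of 12 brown adipocyte markers ran from 4.47 to 6.56 in PexRAP-AKO and from 3.24 to 6.24 in Control. That of 11 skeletal muscle markers ran from -0.13 to 3.12 in PexRAP-AKO and from 0.26 to 6.04 in Control, and that of the endothelial markers from 5.78 to 6.34 in PexRAP-AKO and from 6.29 to 6.59 in Control. PexRAP-AKO replicate 6 stood apart in 9 T cell markers (3.70, against 0.53 to 1.34 in the other PexRAP-AKO libraries and 0.14 to 1.05 in Control) and in 3 epithelial markers (3.18, against -0.19 to 0.41 in the other PexRAP-AKO libraries and -0.07 to 0.93 in Control). Its B cell marker score was also the highest of all libraries (3.84, against 0.09 to 1.32 in the other PexRAP-AKO libraries). Control replicate 8 came next at 2.88, with the other Control libraries at -0.43 to 0.43. In bulk tissue, fewer cells of a type and less RNA per cell cannot be told apart.

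The 10 genes lie on 8 chromosomes, and their starts differ in base composition. RefSeq start sites (GRCm38.p6) were matched for 9 of them, all but Tmem189. The 250 bases before the start were searched on both strands for CCAAT (the NF-Y box), GGGCGG (the Sp1 box), TATAAA (the TATA box), TCACNCCAC (a sterol regulatory element), the repeat of AGGTCA with 1 base between (a PPAR element), CACGTG (an E-box) and TGACGTCA (the cyclic AMP response element), the last added after the sequences were read. GGGCGG was in 7 of the 9 windows, against 32.7% of 32851 promoters, and CCAAT in 5 of the 9, against 33.8%. The 9 windows had a median of 67.2% G and C, against 52.4% over all promoters, and 7 of the 9 lay above the latter. The part of base composition in the GGGCGG count was not tested. CACGTG was in that of Gnpat alone, against 6.02% of promoters. TATAAA, TCACNCCAC and the AGGTCA repeat were in 0 of the 9, against 12.4%, 1.05% and 0.0335% of promoters. Dhrs7b and Agps are shown because they encode successive enzymes of the peroxisomal route and because Dhrs7b passed the threshold for a change between the groups and Agps did not. The windows are chr11:60830381-60830630 for Dhrs7b and chr2:75831927-75832176 for Agps, both on the plus strand, written 5′ to 3′ with matched motifs in capitals.
Dhrs7b: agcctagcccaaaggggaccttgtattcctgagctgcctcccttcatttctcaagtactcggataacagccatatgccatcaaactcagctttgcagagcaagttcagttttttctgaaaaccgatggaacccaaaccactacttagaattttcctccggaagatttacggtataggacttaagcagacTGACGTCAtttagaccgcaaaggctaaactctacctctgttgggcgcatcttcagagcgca
Agps: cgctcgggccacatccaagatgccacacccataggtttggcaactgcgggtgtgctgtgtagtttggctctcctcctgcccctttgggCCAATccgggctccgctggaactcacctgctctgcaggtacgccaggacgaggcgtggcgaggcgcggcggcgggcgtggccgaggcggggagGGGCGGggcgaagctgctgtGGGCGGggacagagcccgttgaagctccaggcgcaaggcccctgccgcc
The Dhrs7b window was 46.4% G and C, below the median of 52.4% over all promoters, and held 1 of the motifs, TGACGTCA, which starts 61 bases before the transcription start and occurs in 1.55% of promoters. The Agps window was 70% G and C, with GGGCGG starting 69 and 49 bases and CCAAT 162 bases before the start. These matches describe letters, not bound sites.

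The first question is whether the targeted transcript was lower in the Cre-positive fat. Dhrs7b encodes the reductase that turns acyl- or alkyl-dihydroxyacetone phosphate into the matching glycerol phosphate, the step that joins the peroxisomal to the reticulum part of the route. Its gene (ENSMUSG00000042569, chromosome 11, 60830631 to 60860195, GRCm38, plus strand) has 7 exons in its longest transcript. Dhrs7b stood at 22.8, 19.0, 18, 21.8 and 17.9 CPM in PexRAP-AKO replicates 1, 2, 3, 5 and 6, against 95.6, 61.0, 85.7, 85.8 and 83.1 CPM in Control replicates 2, 3, 5, 7 and 8. Each PexRAP-AKO library lay below each Control library, and Control replicate 3 was the lowest of its group. Dhrs7b fell to 19.9 ± 2.25 CPM in PexRAP-AKO, against 82.2 ± 12.8 CPM in Control (SD, n = 5 each), a log2 fold change of -2.05 (SE 0.12, 95% interval -2.31 to -1.79, adjusted p = 1.54e-05 by Benjamini-Hochberg in edgeR's quasi-likelihood test). The exact two-sided permutation p on log2 CPM was 0.00794, the smallest that 5 against 5 allows. The signal left in the 5 PexRAP-AKO libraries was 21.8% to 27.7% of the Control mean. It was lowest in replicates 6 and 3 and highest in replicate 1, and the spread across these mice was small beside the gap to Control. Which cells or exons gave the remaining reads was not tested.

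**Figure D1:**
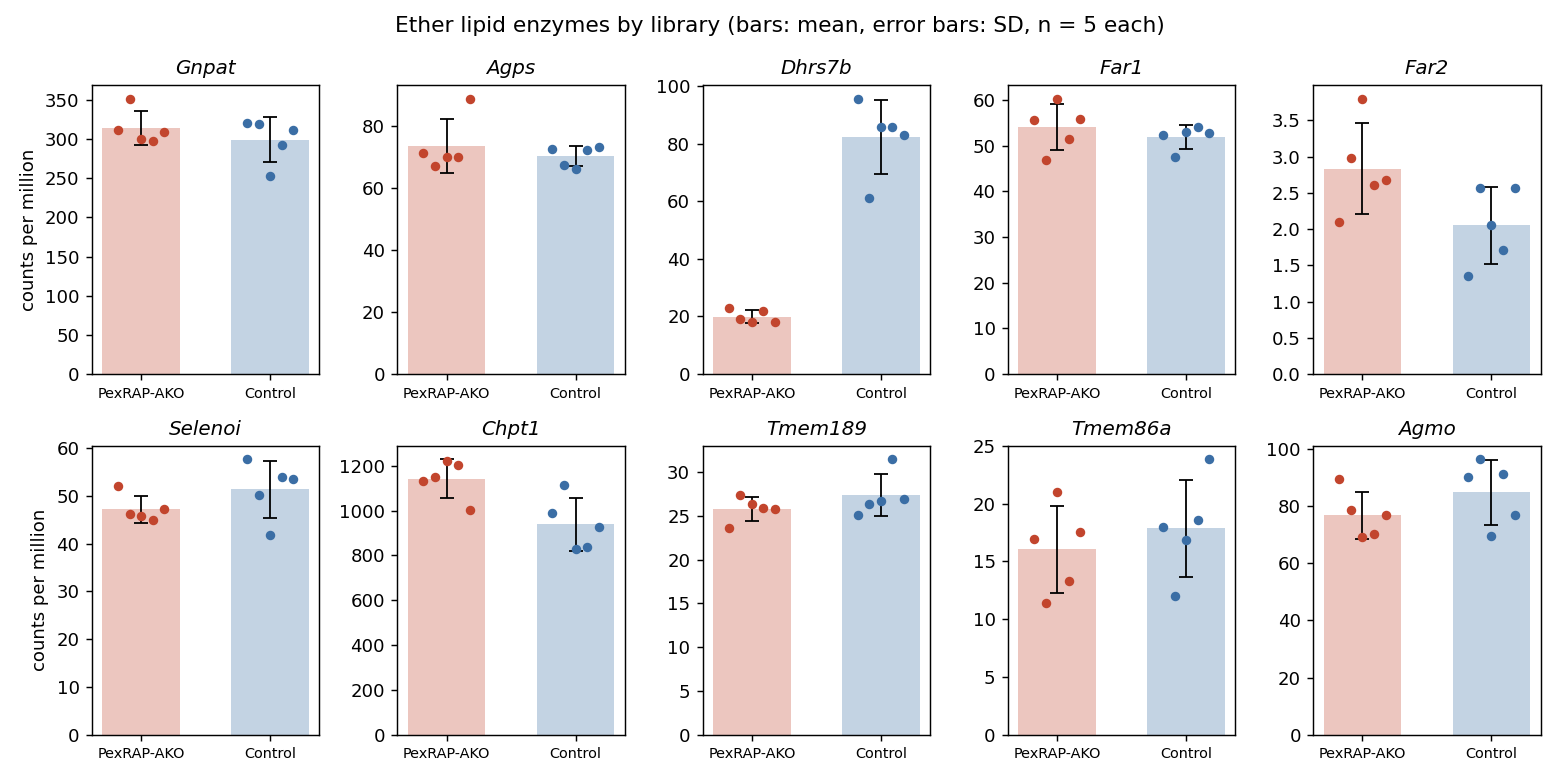
CPM of each ether lipid gene (vertical axis, starting at 0) in PexRAP-AKO and Control fat; points are libraries, bars the mean and error bars the SD of 5. Dhrs7b alone shows no overlap, with PexRAP-AKO at 17.9 to 22.8 CPM and Control at 61.0 to 95.6 CPM.

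No tested gene beside Dhrs7b on the chromosome had a fold change near its size. Of 22 other genes tested within 500 kb, 0 passed edgeR's threshold (lowest adjusted p = 0.152), against 0.101% of all genes, and 5 had an unadjusted p under 0.05, against 15.5% of all genes. Their log2 fold changes ran from -0.32 to 0.29, with a median of 0.04. The nearest on the downstream side was Tmem11, a mitochondrial membrane protein, 4.26 kb away, at 0.16 (SE 0.09, adjusted p = 0.438). The nearest on the upstream side was Shmt1, the cytosolic serine hydroxymethyltransferase, 18.9 kb away, at 0.16 (SE 0.13, adjusted p = 0.592). Natd1, an acetyltransferase-domain gene 42.0 kb downstream, had the lowest p of the 22, at 0.22 (SE 0.06, adjusted p = 0.152), and its PexRAP-AKO libraries all lay above its Control libraries, as for 2.08% of all genes. With DESeq2, Natd1 passed (adjusted p = 0.0416), as did 4.27% of genes, and Tmem11 and Shmt1 did not. These 3 genes were named after their values were seen.

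**Figure D2:**
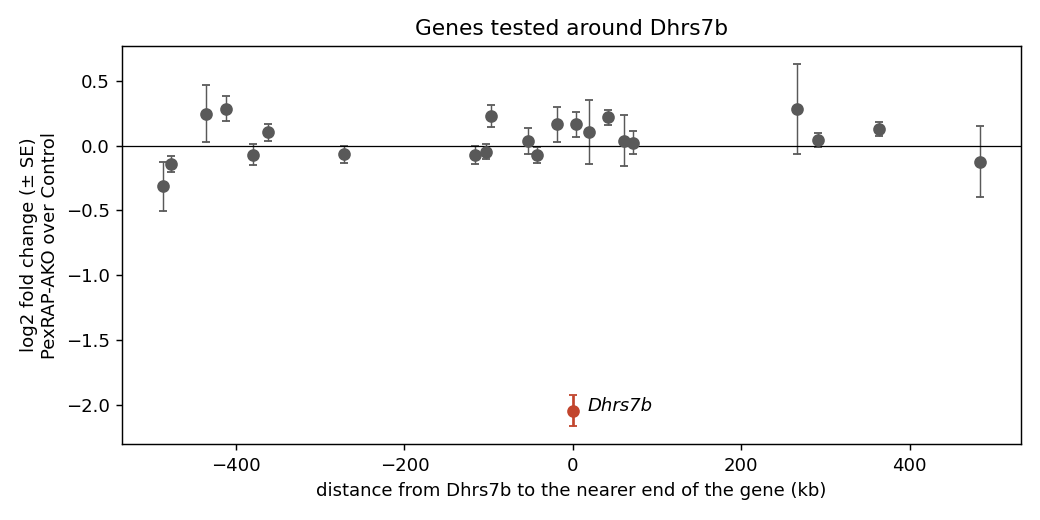
Log2 fold change of PexRAP-AKO over Control, with its SE, for Dhrs7b and the 22 other tested genes within 500 kb, placed by distance from Dhrs7b in kb. The neighbours lie between -0.32 and 0.29, and Dhrs7b at -2.05.

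Of the 10 ether lipid genes, 1 passed the threshold, Dhrs7b, which was lower. Among all genes 15 of 14913 passed, or 0.101%, with 14 higher (0.0939%) and 1 lower (0.00671%), and the 1 lower call in edgeR was Dhrs7b itself. Other tools called more genes on both sides, DESeq2 309 higher and 130 lower (4.27% in all and 1.26% lower, of the 10287 genes it gave an adjusted p) and limma voom with sample quality weights 88 higher and 19 lower. Each still called 1 of the 10 ether lipid genes, Dhrs7b. At an unadjusted p under 0.05 stood 2 of the 10, Dhrs7b on the lower side and Chpt1 on the higher, against 15.5% of all genes (9.01% higher and 6.44% lower). Groups that did not overlap were seen for 1 of the 10, Dhrs7b, against 3.41% of all genes (2.08% higher and 1.33% lower). The 9 other genes had log2 fold changes of -0.15 to 0.46, 5 positive and 4 negative, with adjusted p from 0.225 to 0.766. Their median was 0.06, beside -0.0006 over all genes tested, and that of all 10 was -0.01. The 95% intervals of 8 of the 9 spanned 0, and those of 8 of the 9 lay within a 1.5-fold change in either direction. The exception to the first was Chpt1 and to the second Far2. An interval inside 1.5-fold bounds the change of the mean at this depth and does not show that a level was equal.

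**Figure D3:**
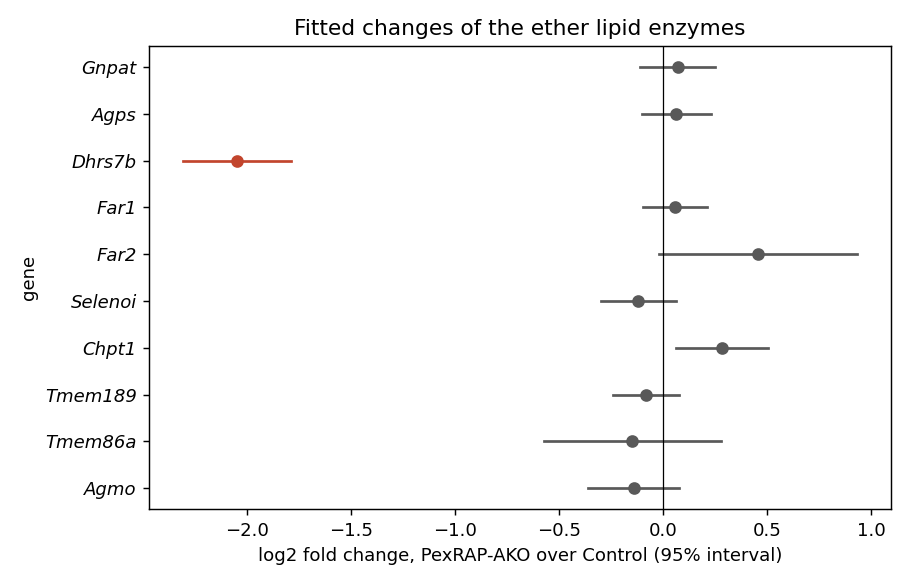
Fitted log2 fold change of PexRAP-AKO over Control (horizontal axis) with its 95% interval for each ether lipid gene, from edgeR's fit over all genes. Dhrs7b lies at -2.05, and the 9 others between -0.15 and 0.46.

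Gnpat and Agps encode the enzymes that act just before the reductase. Gnpat (chromosome 8, 124863033 to 124890057, plus strand, 16 exons) encodes the acyltransferase that loads a fatty acid onto dihydroxyacetone phosphate. It stood at 311, 352, 300.1, 297 and 309 CPM in PexRAP-AKO replicates 1, 2, 3, 5 and 6, against 321, 319, 252, 292 and 311 CPM in Control replicates 2, 3, 5, 7 and 8. The groups overlapped, with PexRAP-AKO replicate 2 highest and Control replicate 5 lowest. The log2 fold change was 0.07 (SE 0.08, 95% interval -0.11 to 0.25, edgeR adjusted p = 0.732). Agps (chromosome 2, 75832177 to 75931350, plus strand, 20 exons) encodes the enzyme that exchanges that fatty acid for a fatty alcohol and so makes the ether bond. It stood at 71.6, 67.2, 70.2, 70.1 and 89.0 CPM in PexRAP-AKO, against 72.8, 67.6, 66.4, 72.3 and 73.5 CPM in Control, in the same order of replicates. PexRAP-AKO replicate 6, the library with the high T cell, B cell and epithelial markers, was the highest, and the other 9 lay between 66.4 and 73.5 CPM. The part of those cells in the Agps level of that library was not tested. The log2 fold change of Agps was 0.06 (SE 0.08, adjusted p = 0.741), and without that library it was -0.01. Scaled by library totals alone, Gnpat, Agps and Far1 stood at -0.0013, -0.0054 and -0.01, so their sign depends on the scaling. That scaling also moved the median of all genes, to -0.07. With the brown adipocyte score in the fit, the same 3 genes stood at 0.12, 0.11 and 0.07.

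The fatty alcohol used by Agps is made from acyl-CoA by fatty acyl-CoA reductases. Far1 (chromosome 7, 113513834 to 113571511, plus strand, 13 exons), the widely expressed form, ran from 46.8 to 60.3 CPM in PexRAP-AKO and from 47.4 to 54.1 CPM in Control, with a log2 fold change of 0.06 (SE 0.07, adjusted p = 0.743). Far2 (chromosome 6, 148047259 to 148182758, plus strand, 12 exons), the other reductase, was scarce. It had 2.10, 2.98, 3.80, 2.60 and 2.68 CPM in PexRAP-AKO replicates 1, 2, 3, 5 and 6, against 1.36, 2.56, 2.06, 1.71 and 2.57 CPM in Control replicates 2, 3, 5, 7 and 8. In 4 of 5 PexRAP-AKO libraries it was above every Control library, and replicate 1 overlapped. Far2 rested on 16 to 51 counts per library, and its log2 fold change of 0.46 (SE 0.22, 95% interval -0.02 to 0.93) did not pass (adjusted p = 0.341 in edgeR, exact two-sided permutation p = 0.0476 on its own, unadjusted). Of its exonic bases, 12.6% are shared with other annotated genes, mostly with Ergic2 on the opposite strand. Ergic2 was at 41.0 ± 2.06 CPM in PexRAP-AKO and 37.7 ± 1.49 CPM in Control (SD, n = 5 each), far above Far2, and strandedness of the counts is not given in the sources used here.

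Per kilobase of exon, Far2 made up 3.99%, 6.56%, 6.49%, 5.26% and 5.01% of the Far1 and Far2 signal in PexRAP-AKO libraries, against 2.77%, 5.62%, 4.09%, 3.36% and 5.08% in Control libraries, in the order of replicates above. The groups overlapped. The means were 5.46% ± 1.08 in PexRAP-AKO and 4.18% ± 1.18 in Control (SD, n = 5 each, exact two-sided permutation p = 0.127, 0.127 when adjusted over the 2 shares tested).

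The later enzymes add the head group and the vinyl bond. Chpt1 (chromosome 10, 88452745 to 88504073, minus strand, 9 exons) encodes the choline phosphotransferase. It stood at 1134, 1148, 1221, 1204 and 1001 CPM in PexRAP-AKO replicates 1, 2, 3, 5 and 6, against 989.6, 1115, 830.2, 836 and 926 CPM in Control replicates 2, 3, 5, 7 and 8. In 4 of 5 PexRAP-AKO libraries it was above every Control library. PexRAP-AKO replicate 6 was lowest of its group, and Control replicate 3 reached into the PexRAP-AKO range. Chpt1 averaged 1142 ± 86.7 CPM in PexRAP-AKO and 939 ± 118 CPM in Control (SD, n = 5 each), with a log2 fold change of 0.28 (SE 0.10, 95% interval 0.06 to 0.50). It had an unadjusted p of 0.0168 in edgeR's fit, a level that 15.5% of all genes reached, and an adjusted p of 0.225, so it did not pass. Its exact two-sided permutation p was 0.0159, unadjusted. Chpt1 passed in 0 of 22 alternative analyses. The lowest adjusted p among them was 0.0633, with DESeq2, and the highest 0.604, with the brown adipocyte marker score as a covariate (log2 fold change 0.24). Brown adipocyte markers stood higher in PexRAP-AKO as well, at a mean score of 5.84 ± 0.84 against 4.70 ± 1.24 in Control (SD, n = 5 each), and beyond that covariate fit their part in the Chpt1 level was not tested. Sycp3, a meiotic gene on the opposite strand that shares 660 exonic bases with Chpt1, was at 5.05 ± 0.36 CPM in PexRAP-AKO and 4.59 ± 0.78 CPM in Control (SD, n = 5 each).

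Selenoi (chromosome 5, 30232581 to 30272427, plus strand, 10 exons), the ethanolamine phosphotransferase and a selenoprotein, ran from 44.9 to 52.0 CPM in PexRAP-AKO and from 41.8 to 57.6 CPM in Control (log2 fold change -0.12, SE 0.08, adjusted p = 0.523, and -0.0097 with the brown adipocyte score in the fit). Its share of the Selenoi and Chpt1 signal per kilobase was 2.83%, 2.49%, 2.32%, 2.31% and 2.90% in PexRAP-AKO libraries, against 3.56%, 2.77%, 3.09%, 3.92% and 3.54% in Control libraries. Control replicate 3, the library high in Chpt1, was the one that overlapped. The mean share was 2.57% ± 0.28 in PexRAP-AKO and 3.38% ± 0.45 in Control (SD, n = 5 each), a difference of -0.81 percentage points (exact two-sided permutation p = 0.0238, 0.0476 when adjusted over the 2 shares tested). With each library left out in turn the difference was -0.96 to -0.67 points. The p adjusted over the 2 shares then ran from 0.0317 to 0.0952 and stayed under 0.05 in 1 of 10 cases, without Control replicate 3. Both shares were picked with the fold changes of their genes already known, so the test is not independent of them. Neither Selenoi nor Chpt1 passed on its own.

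Tmem189 (chromosome 2, 167642608 to 167689822, minus strand, 6 exons), the desaturase that puts in the vinyl ether bond of plasmalogens, varied least of the 10 within PexRAP-AKO. It ran from 23.6 to 27.4 CPM there and from 25.1 to 31.4 CPM in Control (log2 fold change -0.08, SE 0.07, 95% interval -0.24 to 0.08, adjusted p = 0.628). Its level is uncertain, since 30.8% of its exonic bases are shared with other genes. Of these, 694 belong also to Gm20431, on the same strand and listed at 0 in all 10 libraries, and 312 to Cebpb on the opposite strand.

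The remaining genes encode enzymes of ether lipid breakdown. Tmem86a (chromosome 7, 47050601 to 47054777, plus strand, 3 exons), a lysoplasmalogenase that removes the vinyl ether chain, ran from 11.4 to 21.04 CPM in PexRAP-AKO and from 12.01 to 23.8 CPM in Control (log2 fold change -0.15, SE 0.19, adjusted p = 0.766). Its spread was wide, with coefficients of variation of 23.5% in PexRAP-AKO and 23.6% in Control. Its sign turned with a marker score as a covariate, to 0.01 with brown adipocyte and 0.04 with skeletal muscle markers. Agmo (chromosome 12, 37241641 to 37582202, plus strand, 8 exons), the monooxygenase that cleaves alkylglycerols, ran from 69.1 to 89.5 CPM in PexRAP-AKO and from 69.4 to 96.3 CPM in Control (log2 fold change -0.14, SE 0.10, adjusted p = 0.529, and -0.06 with the brown adipocyte score in the fit). Its gene is the longest of the 10, at 340.6 kb.

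Levels were compared between genes as RPKM, here CPM per kilobase of exon, with exon lengths from GENCODE M21. In Control, Chpt1 (113 ± 14.2 RPKM) and Gnpat (83.4 ± 7.94 RPKM) stood highest, followed by Dhrs7b (24.7 ± 3.84 RPKM) and Agmo (13.3 ± 1.76 RPKM). Then came Tmem86a (9.46 ± 2.24 RPKM), Tmem189 (8.37 ± 0.73 RPKM), Agps (7.49 ± 0.35 RPKM), Far1 (6.45 ± 0.32 RPKM) and Selenoi (3.91 ± 0.46 RPKM), with Far2 last (0.28 ± 0.07 RPKM; SD, n = 5 throughout). From Agmo down to Agps, each gene's range over libraries overlapped that of the next. In PexRAP-AKO, Dhrs7b was at rank 8 with 5.98 ± 0.68 RPKM, against rank 3 in Control, and its range overlapped that of Far1 (6.71 ± 0.63 RPKM; SD, n = 5 each). By this exon length, the order of the 9 other genes was the same in both groups. Gnpat stood above its partner Agps in every library of both groups, at 82.8 to 97.98 RPKM against 7.14 to 9.44 RPKM in PexRAP-AKO and at 70.4 to 89.5 RPKM against 7.04 to 7.80 RPKM in Control. The order depends on gene models. With the longest transcript as length, Dhrs7b was at rank 9 in PexRAP-AKO and 4 in Control, while Chpt1 and Gnpat stayed at ranks 1 and 2 and Far2 at 10. Agps and Tmem86a then swapped order, at ranks 6 and 7 in PexRAP-AKO and 8 and 7 in Control.

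**Figure D4:**
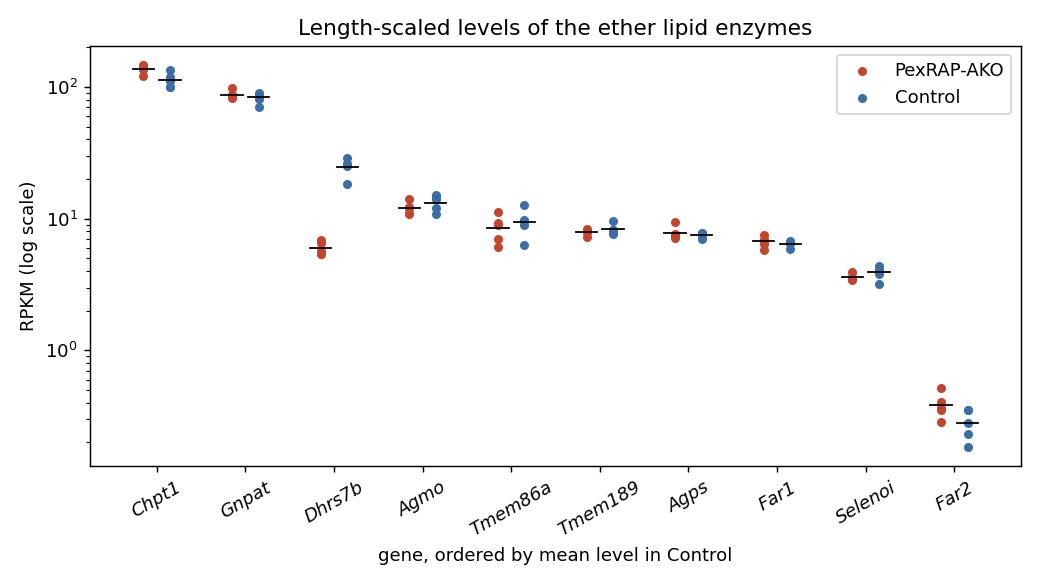
RPKM per library on a log axis for each ether lipid gene, ordered by its mean in Control; points are the 5 PexRAP-AKO and 5 Control libraries and lines the means. By this exon length, Dhrs7b is the gene whose place in the order differs between the groups, at 5.98 RPKM in PexRAP-AKO and 24.7 RPKM in Control.

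The steps that feed and follow the pathway were described with 7 further lists of 64 genes, 61 of them tested. The lists were chosen with earlier results of these data known, so the counts below are not independent of those results. Acsl3 and Lpcat3 passed, both higher, which is 2 of 61 against 0.0939% of all genes called higher. In all, 46 of the 61 had a positive log2 fold change, against 49.8% of all genes, and their median was 0.14. At an unadjusted p under 0.05 stood 15 on the higher side, against 9.01% of all genes, and 2 on the lower side, against 6.44%. DESeq2 gave 49 of the 61 an adjusted p and called 7, all higher, against 4.27% of genes called in either direction, adding Tpi1, Aldoa, Agpat2, Agpat3 and Pcyt2 to Acsl3 and Lpcat3. The brown adipocyte markers moved the same way as most of the 61, and the muscle and endothelial markers the other way, as given above. With the brown adipocyte score in the fit, 44 of the 61 were positive with a median of 0.07, and with the skeletal muscle score 45 were positive with a median of 0.11. Beyond these fits, chosen for the 61 genes after their values were seen, the part of other cell types was not tested. Acsl3, an acyl-CoA synthetase of the endoplasmic reticulum and lipid droplets, stood at 30.9, 31.2, 38.4, 47.7 and 39.8 CPM in PexRAP-AKO, against 18.3, 20.5, 19.6, 18.6 and 17.9 CPM in Control. Lpcat3, which puts polyunsaturated chains onto lysophospholipids, stood at 112, 159, 169, 165 and 141 CPM in PexRAP-AKO, against 79.2, 92.6, 76.8, 70.6 and 73.1 CPM in Control. Neither gene's groups overlapped, as for 2.08% of all genes on the higher side. The log2 fold changes were 0.98 (SE 0.11) for Acsl3 and 0.93 (SE 0.11) for Lpcat3, both with an edgeR adjusted p of 0.00891. Both calls were lost without Control replicate 7 (adjusted p = 0.0532) or Control replicate 8 (adjusted p = 0.0545), and 0 of the 61 then passed. They were kept in 18 of the 22 alternatives.

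Peroxisomal import of Agps runs through Pex7 and that of Gnpat through Pex5. Of 5 import genes 0 passed in edgeR, 3 had an unadjusted p under 0.05 (2 higher, 1 lower), and the median log2 fold change was 0.14. Over all genes, 0.101% passed and 15.5% had an unadjusted p under 0.05 (9.01% higher, 6.44% lower), to set beside each list here. Pex7 was at 34.8 ± 1.54 CPM in PexRAP-AKO and 29.8 ± 3.57 CPM in Control (SD, n = 5 each, log2 fold change 0.22, adjusted p = 0.229). Pex5l, a relative of Pex5 found mainly in brain, was scarce at 1.54 ± 0.10 CPM in PexRAP-AKO and 2.47 ± 0.58 CPM in Control (SD, n = 5 each, log2 fold change -0.68, adjusted p = 0.159). Of 7 genes that supply dihydroxyacetone phosphate and glycerol phosphate, 0 passed, 2 had an unadjusted p under 0.05 and 5 were positive, with a median of 0.39. Tpi1, triosephosphate isomerase, was at 0.43 (adjusted p = 0.125) and Aldoa, the aldolase that yields dihydroxyacetone phosphate, at 0.50 (adjusted p = 0.188) on the log2 scale. Of 8 genes of acyl-CoA supply, all had a positive log2 fold change, with a median of 0.21, and Acsl3 was the 1 that passed. Aldh3a2, the fatty aldehyde dehydrogenase, was second by p, at 0.13 (adjusted p = 0.272). Aldh3a2 lies 363 kb from Dhrs7b, so it is also among the tested genes within 500 kb described above.

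Of 11 acyltransferase and phosphatidate phosphatase genes, 0 passed and 2 had an unadjusted p under 0.05, with a median of 0.05. For this list and those after it, the share of all genes with an unadjusted p under 0.05 is again 15.5%. Agpat2, the main lysophosphatidate acyltransferase of fat, was at 1954 ± 313 CPM in PexRAP-AKO and 1014 ± 243 CPM in Control (SD, n = 5 each, log2 fold change 0.95, adjusted p = 0.0657). Its groups did not overlap, as for 2.08% of all genes on the higher side. Agpat3 was at 0.27 (adjusted p = 0.175). Of 9 genes of the CDP-ethanolamine and CDP-choline branches, 0 passed and 2 had an unadjusted p under 0.05, with a median of 0.21. Pcyt2, which makes the CDP-ethanolamine used by Selenoi, was at 84.7 ± 14.8 CPM in PexRAP-AKO and 57.6 ± 11.6 CPM in Control (SD, n = 5 each, log2 fold change 0.55, adjusted p = 0.165). Pcyt1a, which makes CDP-choline, was at 0.16 (adjusted p = 0.265). Of 14 remodelling and breakdown genes, 1 passed, Lpcat3, with a median of 0.09, and Mboat2, another lysophospholipid acyltransferase, was second by p at -0.64 (adjusted p = 0.213). Of 7 genes that make or recycle tetrahydrobiopterin, the cofactor of Agmo, 0 passed and 1 had an unadjusted p under 0.05, with a median of 0.13. Qdpr, which recycles it, was at 0.19 (adjusted p = 0.256) and Pcbd2 at 0.28 (adjusted p = 0.341). With the brown adipocyte score in the fit, Pcyt2 stood at 0.31 (adjusted p = 0.485) and Agpat3 at 0.16 (adjusted p = 0.586). Aldoa then stood at 0.33 (adjusted p = 0.591) and Pcbd2 at 0.12 (adjusted p = 0.827). In that fit Acsl3 stood at 0.85 and Lpcat3 at 0.76, both still past the threshold (adjusted p = 0.035 each). Agpat2 stood at 0.69 (adjusted p = 0.141) and Tpi1 at 0.39 (adjusted p = 0.433). All these values are log2 fold changes from edgeR's fit.

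**Figure D5:**
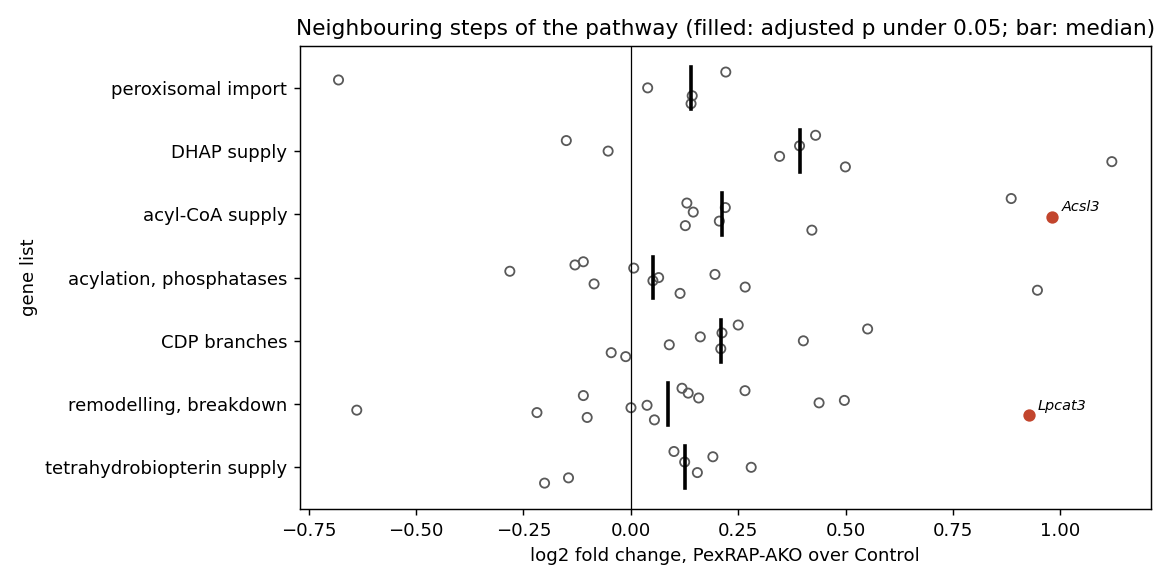
Log2 fold changes of PexRAP-AKO over Control for the 61 tested genes of 7 lists of neighbouring steps; filled points passed the threshold and bars are list medians. Acsl3 and Lpcat3 are the 2 filled points, at 0.98 and 0.93, and the medians lie between 0.05 and 0.39.

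The 5 genes whose profile over the 10 libraries was closest to that of Dhrs7b were sought among 14293 genes of at least 1 CPM. Closeness was the root mean square difference of gene-centred log2 CPM, which for a flat profile would be 1.03. Sbk2 was nearest (0.49), then Prtn3 (0.56), Chst8 (0.60), Celsr2 (0.61) and St6galnac5 (0.64). Prtn3, the serine protease proteinase 3, was at 4.77 ± 1.68 CPM in PexRAP-AKO and 17.9 ± 8.84 CPM in Control (SD, n = 5 each, log2 fold change -1.89, adjusted p = 0.0996). Celsr2, an adhesion receptor of the cadherin family, was at 61.9 ± 17.5 CPM in PexRAP-AKO and 126 ± 24.6 CPM in Control (SD, n = 5 each, log2 fold change -1.02, adjusted p = 0.0764). Sbk2, a kinase gene, stood at a log2 fold change of -1.26 (adjusted p = 0.112), Chst8, a sulfotransferase, at -1.18 (adjusted p = 0.125) and St6galnac5, a sialyltransferase, at -0.80 (adjusted p = 0.0657). In edgeR 0 of the 5 passed. DESeq2 called Prtn3, Celsr2 and St6galnac5 (adjusted p = 4.62e-05, 2.16e-05 and 7.42e-05), against 1.26% of genes called lower, and gave Sbk2 and Chst8 no adjusted p. With the brown adipocyte score in the fit in edgeR, Prtn3 stood at -1.26 (adjusted p = 0.344). The choice by likeness to Dhrs7b, itself lower in PexRAP-AKO, fixed the direction of all 5. It also favoured genes with a clear gap between the groups, so their p-values and calls are not independent of that choice.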

How the data were processed

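The authors deposited whole-number counts of reads per gene with no normalization. Per the submitters' processing notes, STAR 2.0.4b, Subread with featureCounts, and edgeR were used; the sources used here name no genome build, annotation or strandedness. There were 40724 rows under 40501 identifiers, and of 117 identifiers that repeat with equal counts a single row was kept. GENCODE M21 (GRCm38) held 99.4% of identifiers and gave lengths and coordinates. Promoters are from RefSeq (GRCm38.p6).

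Counts were scaled by TMM, filtered with filterByExpr (minimum count 10, minimum total 15) and tested with edgeR 4.0.16 under R 4.3.3 (quasi-likelihood F test, robust, no covariate), adjusted by Benjamini-Hochberg over 14913 genes, threshold 0.05. Standard errors are the log2 fold change over the square root of F. Log2 CPM used a prior count of 2. Single values were compared by exact two-sided permutation (scipy 1.17.1). No pair of replicates agreed within sampling noise (lowest chi-square per degree of freedom 7.08). Each replicate number was taken as a separate mouse. Where the labels do not say that samples of a group came from separate animals, p-values measure the spread between these samples.

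The genes and lists were chosen with earlier results of these data known. Named genes are the 10 members, every gene past the threshold and the 2 of smallest p in each list, and the 5 profiles nearest to Dhrs7b without predicted or pseudogene names. Alternatives were 3 scalings, 2 filters, DESeq2 1.42.0, limma 3.58.1 voom with and without sample weights, 2 marker scores, the replicate number as a block, leaving out libraries, and transcript length.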

Additional observations from a re-analysis of the deposited data

Results flagged for a closer look

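Among 42 groups of 5 values (the 10 genes, 2 shares and 9 marker scores), 8 had a library far from the other 4, where chance gives 2.1. In log2 CPM, Gnpat was high in PexRAP-AKO replicate 2 (8.46, others 8.21 to 8.28). Agps was high in PexRAP-AKO replicate 6 (6.48, others 6.07 to 6.16). Far1 was low in Control replicate 3 (5.57, others 5.72 to 5.76), the deepest library.

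The remaining 5 were marker scores in mean log2 CPM. White adipocyte markers were low in Control replicate 5 (10.79, others 11.07 to 11.15), and skeletal muscle markers in PexRAP-AKO replicate 2 (-0.13, others 2.23 to 3.12). T cell (3.70, others 0.53 to 1.34) and epithelial markers (3.18, others -0.19 to 0.41) were high in PexRAP-AKO replicate 6, and B cell markers in Control replicate 8 (2.88, others -0.43 to 0.43). B cell markers were higher still in PexRAP-AKO replicate 6 (3.84, others 0.09 to 1.32), which was not flagged.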

How the results depend on the processing

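Dhrs7b passed in 22 of 22 alternatives (log2 fold change -2.14 to -1.97), and it was the 1 of the 10 genes past the threshold in each. Of 219 values of the 10 genes, 212 kept their sign and side of the threshold and 7 changed sign, none of them past it. With library totals alone, which moved the median of all genes to -0.07, Gnpat was at -0.0013, Agps at -0.0054 and Far1 at -0.0129. Agps was at -0.0143 when PexRAP-AKO replicate 6 was dropped (range -0.0143 to 0.0949 with any library dropped). Tmem86a was at 0.0108 with the brown adipocyte and 0.0398 with the skeletal muscle score, and Shmt1 at -0.0159 with the brown adipocyte score. DESeq2 gave Far2 no adjusted p.

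The count of 15 genes was 26 with no low-count filter, 439 with DESeq2 (10287 genes with an adjusted p), 107 with sample quality weights, 7 with the brown adipocyte and 6 with the skeletal muscle score, 5 with both PexRAP-AKO replicate 6 and Control replicate 8 dropped, and 3 to 58 with 1 library left out (58 with PexRAP-AKO replicate 1 out, 43 with Control replicate 3 out, 6 with replicate 2 or 5 of either group out, and 3 with Control replicate 7 or 8 out). Of the 61 other pathway genes, the 2 calls became 7 with DESeq2, 4 with quality weights, 0 without both those libraries, and 0 to 3 with 1 left out (3 with PexRAP-AKO replicate 1 or Control replicate 3 out, 0 with Control replicate 7 or 8 out). A replicate block over the shared numbers 2, 3 and 5 called 3 genes and 0 of the 61, and put Tmem189 at 0.0208. Libraries of equal number had correlated deviations of -0.021, -0.081 and 0.36, and the number was treated as a name only. With the longest transcript as length, 5 of 10 genes kept their rank in PexRAP-AKO and 4 in Control. The Far2 share differed by 0.93 to 1.65 points and the Selenoi share by -0.96 to -0.67 points with 1 library left out, and the adjusted call of the second was kept in 1 of 10. The cause of these shifts was not tested. Low counts (16 to 51) limit Far2.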
